A study of Mus musculus with 2 samples.

Results

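Of 3523 fibroblast barcodes in a droplet single-cell RNA library of mouse skin, 302 carried the genes Crabp1, Slc26a7, Dkk2 and Notum more strongly than the genes of 5 other fibroblast sets. They made up 8.57% of these fibroblasts (95% Clopper-Pearson interval 7.67 to 9.55). A barcode was kept as a fibroblast with at least 200 genes, at most 20% mitochondrial molecules, at least 10 unique molecular identifiers (UMIs, one per captured RNA molecule) of Col1a1, Col1a2, Col3a1 and Dcn together, 0 UMIs of the leukocyte gene Ptprc and at most 2 UMIs of the basal keratins Krt5 and Krt14. For each of 6 sets of 4 genes, the summed counts per 10000 UMIs were log transformed and standardised over these barcodes. A member was a barcode whose highest score was that of the Crabp1 set, and above 0. The values of these 4 genes chose the members and are given as a description.

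The series asked what removal of neutrophils changes in the skin transcriptome. Skin of C57BL/6 mice aged 8 weeks, either control or treated on 2 days running with the Ly6G antibody 1A8, was digested with Liberase and DNAseII, and both conditions were labelled with hashtag antibodies and pooled. The table holds 1 pooled RNA library with 8367 barcodes and 83725065 UMIs, no condition in the barcode names and no hashtag counts, so members from control and from depleted skin cannot be told apart. The number of animals is not given in the sources used here, and the labels name no region of the skin.

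Hair follicles are organised by a cluster of specialised fibroblasts at their base, the dermal papilla, which sends Wnt, BMP and FGF signals to the epithelial cells around it and receives hedgehog signal from them. A dermal sheath of contractile fibroblasts wraps the follicle and is continuous with the papilla. Crabp1 encodes a cytoplasmic protein that binds retinoic acid, Dkk2 a secreted modulator of the Wnt co-receptors, Notum a secreted enzyme that removes the lipid from Wnt proteins, and Slc26a7 an anion transporter.

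In the mm10 annotation, Crabp1 spans chr9:54764748-54773110 on the plus strand, Dkk2 chr3:132085292-132180304 on the plus strand, Slc26a7 chr4:14502430-14621805 on the minus strand and Notum chr11:120653788-120661175 on the minus strand, all as protein-coding genes. The 250 bases before the RefSeq start are shown for Crabp1, which marked few members, and for Dkk2, which marked nearly all (GRCm38.p6, plus strand, 5′ to 3′). Of the set genes, these 2 had an entry in the promoter table. Crabp1 (chr9:54764498-54764747) and Dkk2 (chr3:132085042-132085291) read:
Crabp1: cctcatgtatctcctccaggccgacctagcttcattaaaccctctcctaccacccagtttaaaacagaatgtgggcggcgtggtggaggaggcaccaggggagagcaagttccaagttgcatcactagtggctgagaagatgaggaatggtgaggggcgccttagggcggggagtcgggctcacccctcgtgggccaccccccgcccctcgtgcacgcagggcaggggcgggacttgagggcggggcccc
Dkk2: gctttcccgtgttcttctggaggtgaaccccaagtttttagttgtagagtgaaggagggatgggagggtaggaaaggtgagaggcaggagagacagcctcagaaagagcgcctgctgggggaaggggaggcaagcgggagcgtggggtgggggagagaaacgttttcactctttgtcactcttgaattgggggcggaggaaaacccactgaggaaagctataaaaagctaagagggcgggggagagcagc
The letters CTTTGAT, a core that the Wnt-responsive TCF and LEF factors recognise, were searched on both strands. Both windows held 0 matches, against 1053 of 32851 promoter windows of the same length (3.21%). The absence of these letters says nothing about the factors beyond the windows. The GC content was 63.6% for Crabp1 and 55.6% for Dkk2.

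Dkk2 was the gene that brought most barcodes into the group. Dkk2 was the only set gene detected in 223 of the 302 members, 68 members held at least 2 set genes and 28 held all 4. Per member barcode, Dkk2 ranged from 0 to 99 UMIs with a median of 4. Crabp1 ranged from 0 to 499 UMIs with a median of 0 and was detected in 60 members, or 19.9% (15.5 to 24.8). Slc26a7 was detected in 55 members and Notum in 35. Among the 3221 other fibroblast barcodes, 279 held a set gene, which was Dkk2 in 236, with at most 7 UMIs. Member scores ran from 0.136 to 7.44 with a median of 2.34. The score of the Crabp1 set exceeded the next set by less than 0.25 in 35 members, while 54 other barcodes fell short of their own leading set by less than 0.25. A Dkk2 UMI was found in 1.19% of the leukocyte barcodes and 0.203% of the keratin barcodes, against 7.07% of the fibroblast barcodes that were neither members nor in the cluster described next. The plot of set-gene combinations shows how the members divide.

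**Figure D1:**
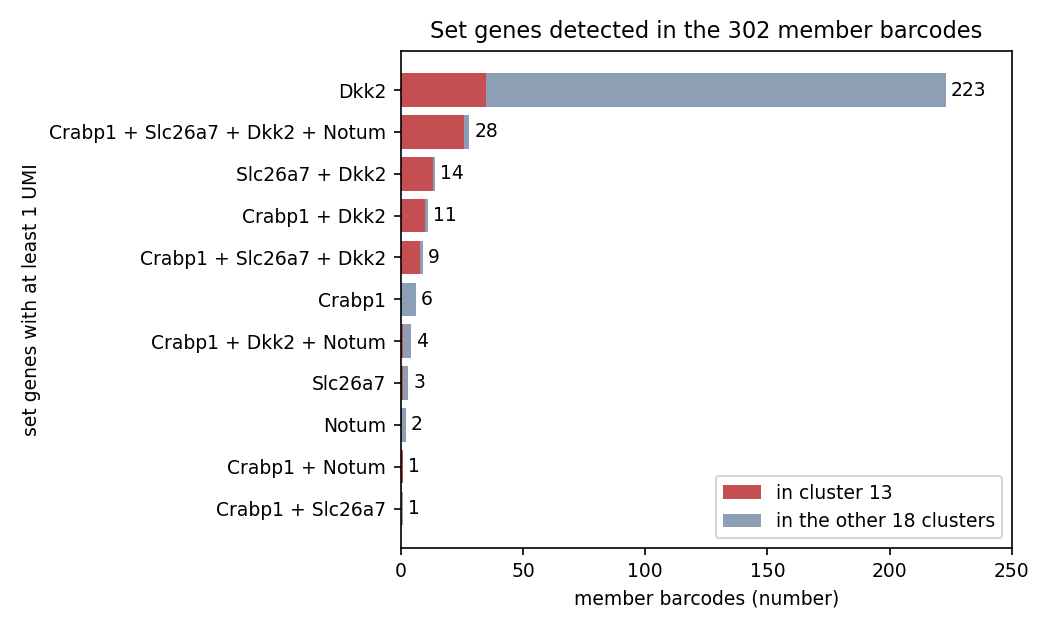
Number of member barcodes (horizontal axis) for each combination of set genes with at least 1 UMI (vertical axis), divided by whether the barcode lay in cluster 13 (red) or in another cluster (grey-blue). Dkk2 alone accounts for 223 of the 302 members, 188 of them outside cluster 13, while 26 of the 28 members with all 4 genes lie in it.

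The fibroblast barcodes were then clustered on variable genes without the 24 genes that define the 6 sets, the gate genes and the mitochondrial genes. The clustering gave 19 clusters. Of the members, 95 lay in cluster 13, which had 121 barcodes and was 78.5% members (70.1 to 85.5), and 207 lay across all 18 other clusters. In the 13 other clusters with at least 100 barcodes, members made up 0.83% to 11.3%. Of the 68 members with at least 2 set genes, 59 lay in cluster 13 (86.8%, 76.4 to 93.8), against 36 of the 234 members with 1 set gene (15.4%, 11.0 to 20.7). The median score was 4.35 for members in cluster 13 and 1.83 for members elsewhere. Of the 35 members near the border of the rule, 32 lay elsewhere. The choice to divide the members by this cluster was made after it was seen, and the genes that formed the cluster are described below without a test.

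**Figure D2:**
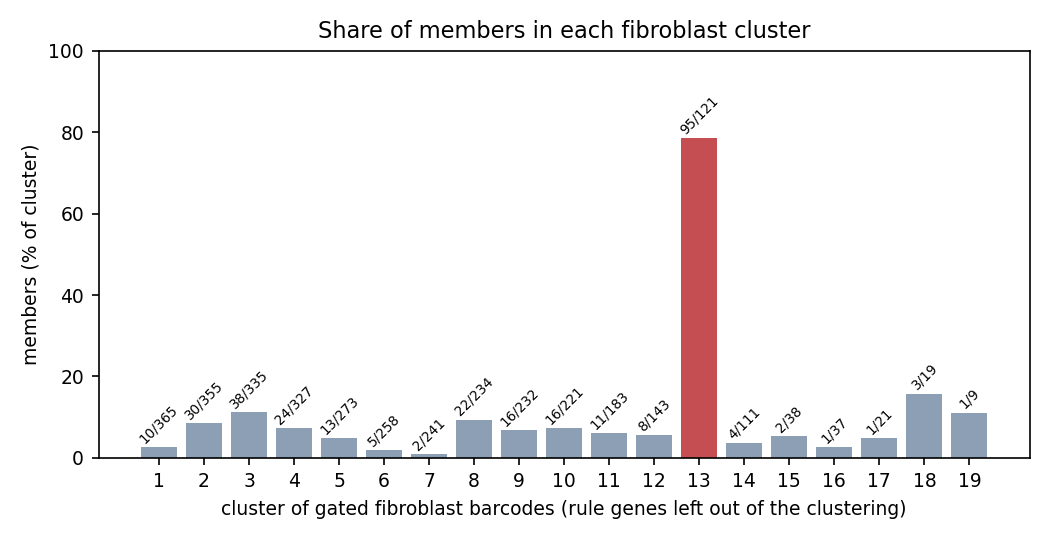
Share of members (percent, vertical axis) in each of the 19 clusters of fibroblast barcodes (horizontal axis), with members over barcodes printed above each bar. Cluster 13 (red) holds 95 members among 121 barcodes, and no other cluster exceeds 15.8%.

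The label of hair-associated fibroblasts was set beside genes outside the rule. The gene lists were drawn up with earlier results of these data known, so they describe the members and do not test the label. The 25 genes of a dermal papilla list summed to 3567 UMIs per 1000000 UMIs (CPM) in members of cluster 13, 449 CPM in members elsewhere and 382 CPM in non-members outside cluster 13. The 10 genes of a dermal sheath list summed to 350, 10.8 and 18.1 CPM. Trps1 alone gave 1660 of the 3567 CPM. In leukocyte barcodes the papilla list summed to 1007 CPM, with Trps1 in 71.4% of them, and in keratin barcodes to 318 CPM. The sheath list summed to 46.5 and 24.5 CPM there. The 207 members outside cluster 13 thus did not carry the genes of these lists at a level much above the other fibroblasts, and they are called by the rule alone. Pdgfra, the receptor that marks dermal fibroblasts, stood at 289 CPM in members of cluster 13, 414 CPM in members elsewhere and 359 CPM in non-members. Markers of other cell types were low in cluster 13. The 10 keratinocyte markers summed to 87.6 CPM, with Epcam and Dsp at 0, against 12900 CPM in keratin barcodes. The 8 macrophage markers summed to 46.6 CPM, with Adgre1 at 0, against 12185 CPM in leukocyte barcodes. Of 7 lymphoid markers 6 were at 0, and of 5 neutrophil markers 4 were at 0. The 6 Schwann markers summed to 9.1 CPM in members of cluster 13, but to 103 and 151 CPM in its subclusters 1 and 2, whose non-member barcodes are counted there too. Members elsewhere held 940 CPM of the 6 skeletal muscle markers and 209 CPM of the keratinocyte markers, against 188 and 115 CPM in non-members. At least 3 skeletal muscle markers were found in 2.90% of members elsewhere and 2.85% of non-members. Members elsewhere also held 62.0 against 12.8 CPM of the 5 adipocyte markers, with Adipoq, Plin1 and Lep at 0. Of these 144 UMIs, 143 were of Car3 alone. The 8 pericyte and smooth muscle markers stood at 62.5 against 24.3 CPM. The part of these markers in the results on members elsewhere was not tested.

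Depth and doublets differed between the groups. Members of cluster 13 had a median of 6401 UMIs, members elsewhere 11188 and non-members 11483. Scrublet, which scores how much a barcode resembles a sum of 2 others, called 17 of the 95 members in cluster 13 as doublets (17.9%, 10.8 to 27.1), 4 of the 207 elsewhere (1.93%, 0.529 to 4.87) and 53 of all 3523 fibroblasts. The deepest barcode of cluster 13 had 45314 UMIs and carried 499 of the 1355 Crabp1 UMIs of the members there, and without it the Crabp1 level was 1027 in place of 1542 CPM. These barcodes belong to 1 library, so no test was made, and intervals cover counting error only.

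Over all 302 members against the 3221 other fibroblasts, 588 of 12640 genes with at least 50 UMIs (4.65%) were at least 2-fold higher and 389 (3.08%) at least 2-fold lower. Where the whole 95% interval had to lie past 2-fold, 287 were higher and 17 lower. Most of the lower genes and many of the higher genes were thus within counting error of that threshold. Of the dermal papilla list, 14 of the 18 genes that reached 50 UMIs were higher and 0 lower, with a median log2 ratio of 2.44 against 0.08 over all genes. This list was drawn up with earlier results of these data known. A gene can reach 50 UMIs through the group where it is high, so such counts describe the list and support nothing further. The pooled ratio joins 2 unlike groups of barcodes, so the values below are given for members in cluster 13 and for members elsewhere, each against the 3195 non-members outside cluster 13.

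In cluster 13, 1893 of 12503 genes (15.1%) were at least 2-fold higher than in the non-members and 1649 (13.2%) at least 2-fold lower. Elsewhere, 194 of 12510 genes (1.55%) were higher and 536 (4.28%) lower. Members of cluster 13 held 878899 UMIs and members elsewhere 2321174, against 37731523 in the non-members. A gene near the 50-UMI limit can thus be called by very few UMIs, above all as lower. Counts by the interval's bound were not made for this division, and these counts include counting error. List counts below are to be read against these shares of all genes. A list with 0 higher genes elsewhere lies near the 1.55%. Of the dermal papilla list, 14 of the 17 genes that reached 50 UMIs were higher in cluster 13, with a median log2 ratio of 4.14 against 0.18 over all genes, and 3 of 13 (Fgf10, Inhba and Rgs2) were higher elsewhere, with a median of 0.43 against 0.02. The other 8 papilla genes, among them Sox2, Sox18 and Prom1, had under 50 UMIs in the comparison of cluster 13. Fgf7, Vcan and Tbx18 lay between the thresholds.

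Of the transcription factors of the papilla list, Lef1 and Trps1 were higher. Lef1, the nuclear partner of beta-catenin in Wnt signalling, ranged from 0 to 27 UMIs per member barcode of cluster 13 with a median of 1, and was detected in 48 of 95. Its level was 247 CPM (215 to 282), against 5.17 CPM in members elsewhere and 0.212 CPM in non-members, where 7 of 3195 barcodes held it. The ratio of cluster 13 to non-members was 1164 (581 to 2732). Nearly all Lef1 UMIs of the members, 217 of 229, thus lay in cluster 13. Trps1, a GATA-type factor required for hair growth, ranged from 0 to 71 UMIs with a median of 11 and was detected in 94 of the 95 members of cluster 13. It reached 1660 CPM there, 26.3 CPM in members elsewhere and 13.3 CPM in non-members, a ratio of 125 (113 to 139) for cluster 13 and 1.98 (1.49 to 2.59) elsewhere. Trps1 was also found in 1378 of 1931 leukocyte barcodes. Sox2, a factor of papillae of certain hair types, had 7.96 CPM in cluster 13 and 0 UMIs in members and non-members outside it.

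Secreted and membrane proteins of the papilla list followed. Wif1, a secreted Wnt inhibitor, ranged from 0 to 9 UMIs per barcode in cluster 13 with a median of 0, and stood at 121 CPM against 2.15 CPM elsewhere and 0.159 CPM in non-members. Inhba, the subunit of activin A, ranged from 0 to 17 UMIs with a median of 0, and stood at 181, 6.03 and 0.981 CPM in the same order. Prlr, the prolactin receptor, ranged from 0 to 39 UMIs with a median of 1, and stood at 383, 3.88 and 2.57 CPM. In all 3 genes cluster 13 was high, while the members elsewhere held 9 UMIs of Prlr, 14 of Inhba and 5 of Wif1 in total. Bmp4, a BMP ligand made by the papilla, ranged from 0 to 33 UMIs with a median of 1 and stood at 207 CPM in cluster 13, 10.8 CPM elsewhere and 11.7 CPM in non-members. The ratio was 17.6 (14.8 to 21.0) for cluster 13 and 0.917 (0.587 to 1.37) elsewhere, an interval that includes 1. Rspo3, a secreted enhancer of Wnt signalling, stood at 89.9 CPM in cluster 13, 7.75 CPM elsewhere and 7.69 CPM in non-members. Fgf10, a growth factor for epithelium, was higher in both, with 66.0 CPM in cluster 13 and 44.4 CPM elsewhere against 21.4 CPM in non-members. Corin, a membrane protease of the papilla, was detected in 12 members of cluster 13 and stood at 22.8 CPM, against 0.848 CPM in non-members.

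**Figure D3:**
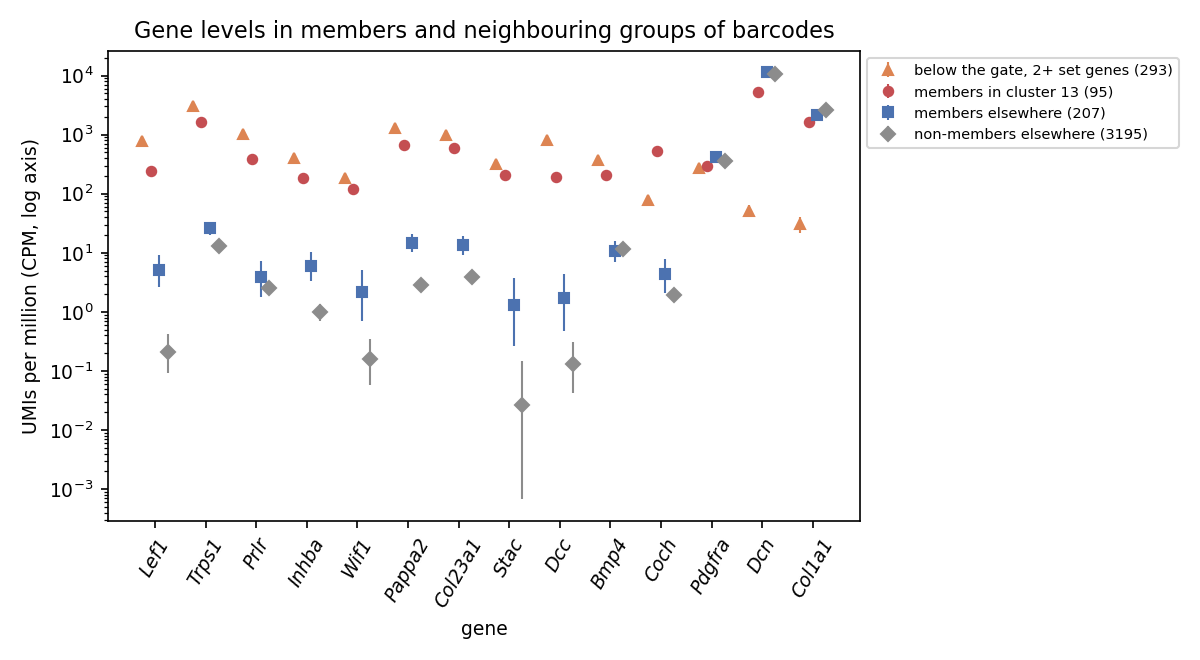
Level of 14 genes (CPM, log axis) in members of cluster 13 (red circles, 95 barcodes), members elsewhere (blue squares, 207), non-members outside cluster 13 (grey diamonds, 3195) and barcodes below the fibroblast gate with at least 2 set genes (orange triangles, 293), with exact Poisson 95% intervals as bars. Lef1 lies at 247 CPM in cluster 13 and 0.212 CPM in non-members, while Pdgfra lies between 270 and 414 CPM in all 4 groups.

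Dermal sheath genes also had a higher summed level in cluster 13, as given above. Of the list, 6 of the 7 genes that reached 50 UMIs were at least 2-fold higher there, against 15.1% of all genes. The median log2 ratio was 3.66, and Kcnma1 was lower. A gene can reach 50 UMIs through the group where it is high, so these counts describe the list only. Without the called doublets, 0 sheath genes were lower in cluster 13. Elsewhere, 0 of 5 were higher and 3 (Tagln, Tnc and Kcnma1) lower, with a median of -1.28. The whole list held 25 UMIs there, with Tagln and Tnc at 0, so these lower calls rest on few UMIs. In non-members, 23 of 3195 barcodes held all 118 Tnc UMIs, with at most 45 per barcode. Itga8, an integrin subunit that binds the matrix protein nephronectin, ranged from 0 to 4 UMIs per barcode with a median of 0 and stood at 48.9 CPM in cluster 13 against 1.43 CPM in non-members. Tnc, the matrix protein tenascin C, ranged from 0 to 13 UMIs with a median of 0 and stood at 63.7 against 3.13 CPM. Mylk, the kinase that activates smooth muscle myosin, ranged from 0 to 7 UMIs with a median of 0 and stood at 87.6 against 6.94 CPM. Acta2, smooth muscle actin, had 10 UMIs in the members of cluster 13, from 5 barcodes, and 43 in the non-members. It thus reached the limit only through cluster 13. Col11a1, a fibrillar collagen chain, had 39 UMIs there and 8 in the non-members and lay under the limit for the list.

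Of the secreted Wnt modulators outside the rule, 6 of 12 were higher in cluster 13 and 5 lower. Elsewhere 1 of 11 (Rspo2) was higher and 2 (Sfrp5 and Rspo1) lower. Apcdd1, a membrane inhibitor of Wnt signalling, stood at 355 CPM in cluster 13, 49.1 CPM elsewhere and 44.4 CPM in non-members. Rspo1 stood at 52.3, 2.15 and 5.35 CPM. The lower genes were Sfrp2, Sfrp4, Sfrp5, Cthrc1 and Igfbp4, and Sfrp4, a secreted frizzled-related protein, stood at 63.7 CPM in cluster 13, 468 CPM elsewhere and 287 CPM in non-members. All Sfrp4 UMIs of cluster 13 lay in its subcluster 3, where 19 of 26 barcodes were called doublets, and without called doublets it stood at 16.5 CPM. Of the Wnt receptors and target genes, 10 of 24 were higher in cluster 13 and 2 lower, against 0 of 23 higher and 1 (Lgr5) lower elsewhere. Nkd2, a feedback inhibitor of the pathway, stood at 70.5, 4.31 and 2.70 CPM. Axin2, a common readout of Wnt activity, had 6.83, 4.31 and 4.59 CPM and lay between the thresholds.

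Of the hedgehog pathway, 9 of 12 genes were higher in cluster 13 and 2 lower, with a median log2 ratio of 1.66. Elsewhere 0 of 11 lay past either threshold, where 1.55% and 4.28% of all genes did. Gli1, a transcription factor that the pathway induces, was detected in 20 of the 95 members of cluster 13, with 0 to 2 UMIs and a median of 0, and stood at 27.3 CPM against 0.875 CPM in non-members. Hhip, a decoy receptor induced by hedgehog, stood at 59.2 against 1.43 CPM, and Ptch1, the receptor, at 55.8 against 7.82 CPM. Members elsewhere held 3 UMIs of Hhip and 2 of Gli1. The 2 lower genes were Cdon, a hedgehog co-receptor, at 66.0 against 141 CPM, and Scube2, a protein that releases the ligand. Scube2 had 0 UMIs in members of cluster 13 and 80 in non-members, but the interval of its ratio reached from 0 to 2.03, so a difference was not detectable at this depth.

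Of the BMP pathway, 8 of 27 genes were higher in cluster 13 and 4 lower, including Bmp7 at 123 against 32.3 CPM and Smoc1, a secreted BMP modulator, at 35.3 against 0.742 CPM. Of the retinoid pathway outside the rule, 2 of 16 genes were higher, a share near the 15.1% of all genes, and 5 lower, against 13.2% of all genes. Crabp2, the relative of Crabp1 that carries retinoic acid to its nuclear receptors, stood at 30.7 against 0.663 CPM. Aldh1a1, an enzyme that makes retinoic acid, stood at 68.3 against 199 CPM, and at 33.0 CPM without the called doublets. Elsewhere, 0 of 26 BMP genes were higher and 3 lower, and 0 of 15 retinoid genes lay past either threshold, where 1.55% and 4.28% of all genes did.

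Of the genes of axon guidance and adhesion, 12 of 31 (38.7%) were higher in cluster 13 and 6 (19.4%) lower, against 15.1% and 13.2% of all genes. Elsewhere 0 were higher and 3 lower, where 1.55% and 4.28% of all genes were, so the 0 lies near that share. Robo2, a receptor for Slit ligands, ranged from 0 to 49 UMIs per barcode of cluster 13 with a median of 5 and was detected in 80 of 95. It stood at 884 CPM there, 12.1 CPM elsewhere and 18.6 CPM in non-members. Slit2, a ligand of that receptor, ranged from 0 to 53 UMIs with a median of 4 and stood at 677, 31.9 and 65.2 CPM. Both receptor and ligand were thus high in cluster 13 and below the non-members elsewhere. Among dermal transcription factors, 13 of 36 (36.1%) were higher in cluster 13 and 9 (25%) lower. Elsewhere 0 of 34 lay past either threshold, where few of all genes did. Runx3 stood at 78.5 against 0.583 CPM and Tfap2a at 100.1 against 0.583 CPM in non-members.

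Adventitial and reticular genes and immune mediators were lower in cluster 13. Of the reticular, hypodermal and adventitial list, 16 of 20 were at least 2-fold lower and 1 higher, with a median log2 ratio of -1.61. Pi16, a marker of adventitial fibroblasts, stood at 495 CPM in cluster 13, 2155 CPM elsewhere and 1756 CPM in non-members, and Aspn, a small proteoglycan and the higher gene, at 1387, 152 and 175 CPM. Of the chemokines and cytokines, 19 of 27 were lower in cluster 13 and 1 higher, against 3 lower and 1 higher elsewhere. Ccl7, a chemokine for monocytes, stood at 58.0, 381 and 474 CPM, and Ptgs2, the inducible enzyme of prostaglandin synthesis, at 87.6, 364 and 520 CPM. Cxcl1, a chemokine for neutrophils, stood at 369 CPM in cluster 13 with 0 to 116 UMIs per barcode and a median of 0. Without the called doublets it was at 84.2 CPM. Of the complement list, 7 of 13 were lower in cluster 13, among them C3 at 773 against 2343 CPM. The C3 and Pi16 levels of cluster 13 came largely from its subcluster 3, in which most barcodes were called doublets. It held 685 C3 UMIs and 410 Pi16 UMIs. Without the called doublets, C3 stood at 223 CPM, Pi16 at 225 CPM and Ptgs2 at 29.7 CPM in members of cluster 13. Igfbp3, a carrier of insulin-like growth factors, ranged from 0 to 350 UMIs with a median of 19 and stood at 3259 CPM in cluster 13, 716 CPM elsewhere and 385 CPM in non-members.

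Some genes induced by tissue dissociation were higher in cluster 13. Of 20, 9 (45%) were at least 2-fold higher there, against 15.1% of all genes. Hspb1 stood at 1517 against 240 CPM and Hspa1a at 2741 against 775 CPM. Elsewhere 0 of the 20 were higher, which lies near the 1.55% of all genes. The part of the dissociation genes in the other differences was not tested. Without the called doublets and the deepest barcode, 13 of 16 papilla genes, 6 of 7 sheath genes and 9 of 12 hedgehog genes were higher in cluster 13, of which 12, 6 and 9 were also higher over all its members. Of 27 chemokines and cytokines 20 were lower, 19 of them also over all members. Over all genes these shares were 19.5% higher and 17.3% lower, above those with every member but from fewer UMIs.

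**Figure D4:**
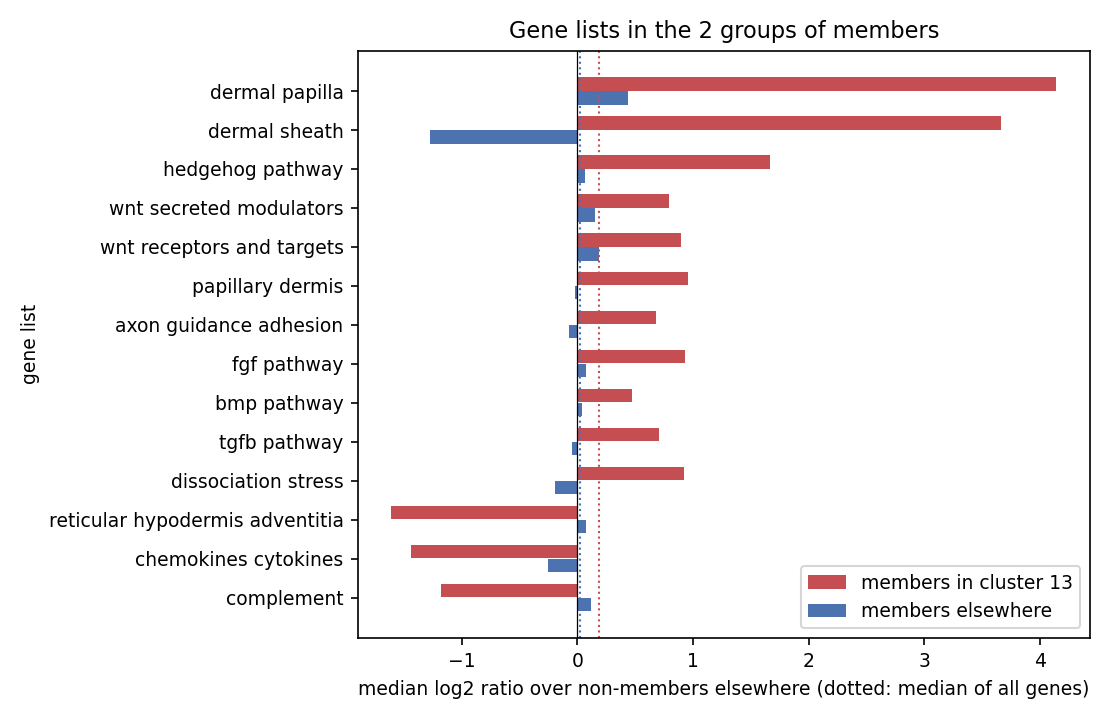
Median log2 ratio (horizontal axis) over the genes of each list (vertical axis) with at least 50 UMIs, for members in cluster 13 (red) and members elsewhere (blue), each over non-members outside cluster 13; dotted lines mark the median of all genes tested. The papilla and sheath lists lie at 4.14 and 3.66 in cluster 13, and the reticular list at -1.61.

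The genes with the highest ratios in cluster 13 included several outside the lists. Stac, an adaptor protein of voltage-gated calcium channels, ranged from 0 to 54 UMIs with a median of 0, and 183 UMIs in 30 of 95 barcodes stood against 1 UMI in the non-members, a ratio of 7856 (1393 to 311980). Dcc, a netrin receptor, ranged from 0 to 40 UMIs in 21 barcodes and stood at 192 against 0.133 CPM. Pappa2, a protease of insulin-like growth factor binding proteins, was detected in 72 of 95 barcodes, with 0 to 64 UMIs and a median of 3, and stood at 654 against 2.84 CPM. Col23a1, a transmembrane collagen, was detected in 74, with 0 to 48 UMIs and a median of 2, and stood at 594 against 3.82 CPM. Pappa2 and Col23a1 were thus widespread in the cluster, while Dcc was found in fewer barcodes. After each barcode was thinned to 2000 UMIs, Pappa2 was found in 54.3% of members in cluster 13, 0.483% of members elsewhere and 0.575% of non-members, and Lef1 in 26.6%, 0.483% and 0.0319%. Without thinning these were 75.8%, 4.83% and 2.22% for Pappa2 and 50.5%, 1.93% and 0.219% for Lef1. Thinning left out 1 barcode of cluster 13, 0 elsewhere and 63 non-members.

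Members elsewhere were led by muscle genes. Acta1, skeletal muscle actin, had 1071 UMIs over all members, of which 2 barcodes held 1023, and the next barcode held 9. Without these 2 barcodes Acta1 stood at 16.1 CPM in members elsewhere, in place of 457 CPM. The 69.6 CPM of the non-members had no such barcodes left out, so it does not compare like for like with the 16.1 CPM. Other genes were higher elsewhere as well, from few UMIs or by smaller ratios. Inhba (14 UMIs) had a ratio of 6.15 (3.07 to 11.6), Pappa2 (34 UMIs) 5.17 (3.40 to 7.66) and Col23a1 (31 UMIs) 3.50 (2.29 to 5.19), each found in 17 members elsewhere or fewer. Lgals7, a galectin of keratinocytes, stood at 105 against 36.7 CPM, beside the higher sum of keratinocyte markers, whose median per barcode was not higher. Igfbp4 stood at 1457 against 876 CPM and Igfbp3 at 716 against 385 CPM, and Kcnq5, a potassium channel, at 98.2 against 39.8 CPM, values that were 1459, 704 and 99.0 CPM without the 2 barcodes. Dkk2 itself, which placed them in the group, ranged from 0 to 31 UMIs per barcode with a median of 3, against 0 to 99 with a median of 8 in cluster 13. After thinning, Dkk2 was found in 48.8% of members elsewhere and 84.0% of members in cluster 13.

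Cluster 13 was divided again, into 4 subclusters, with 42, 32, 26 and 21 barcodes, of which 40, 19, 24 and 12 were members. These groups are small and were read after they were seen. Of 3774 genes, those at least 2-fold higher than in the rest of cluster 13 made up 5.14% in subcluster 1, 4.21% in subcluster 2, 8.03% in subcluster 3 and 5.46% in subcluster 4. Those at least 2-fold lower made up 10.1%, 10.2%, 10.2% and 13.5%. Summed over its barcodes, subcluster 1 held the highest levels of the set genes, with Crabp1 at 2972 CPM, Slc26a7 at 1102 CPM and Notum at 401 CPM, and Lef1 at 457 CPM. Without the deepest barcode these were 1652, 1004, 268 and 453 CPM. Few barcodes carried them: of what was left, 1 barcode held 326 of 456 Crabp1 UMIs and 1 held 53 of 74 Notum UMIs. Crabp1 was found in 19 of the 42 barcodes and Notum in 7, against 21 and 20 of the 26 in subcluster 3. The barcodes of subcluster 1 had a median of 15 UMIs of the 4 gate genes, 28 of 42 had at most 20, and Dcn stood at 582 CPM. They therefore lay near the border of the fibroblast gate. Its leading gene outside the rule was Ramp3, a receptor-modifying protein, at 243 CPM, which had 60 UMIs in its highest barcode.

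Subcluster 2 had 0 UMIs of Notum and Slc26a7, Crabp1 at 44.7 CPM and Dkk2 at 598 CPM. It carried sheath genes, with Itga8 at 140 CPM, Col11a1 at 145 CPM and Tnc at 156 CPM, and the matrix protein gene Coch at 821 CPM. Slit2 stood at 2134 CPM. Subcluster 4 had Coch at 2479 CPM, Acta2 at 2000 CPM and Mylk at 780 CPM, genes of the contractile apparatus apart from Coch. Acta2 was found in 5 of its 21 barcodes, with at most 100 UMIs, Coch in 9 and Mylk in 14, so the levels rest on few barcodes. The Acta2 level was not one of the members: in all of cluster 13, 5 non-members held 244 Acta2 UMIs and the 95 members held 10. The 8 markers of pericytes and smooth muscle, of which Acta2 is one, summed to 2504 CPM in subcluster 4 and 39.1 CPM or less in the others. The 10 sheath genes summed to 4504 CPM in subcluster 4, 1034 in subcluster 2, 370 in subcluster 1 and 36.5 in subcluster 3.

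Subcluster 3 stood apart in depth. Scrublet called 19 of its 26 barcodes as doublets, its median was 14473 UMIs against 5213 to 5647 in the other subclusters, and 18 of the 28 members with all 4 set genes lay in it. Beside Dkk2 at 1461 CPM and Lef1 at 153 CPM, it held genes of the other fibroblasts, such as Pi16 at 996 CPM, C3 at 1665 CPM and Plac8 at 1604 CPM. Subclusters 1 and 2 had at most 44.7 CPM of Pi16, and subcluster 4 had 341 CPM, from 7 of its 21 barcodes. Without subcluster 3, 2539 genes were at least 2-fold lower in members of cluster 13, in place of 1649.

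**Figure D5:**
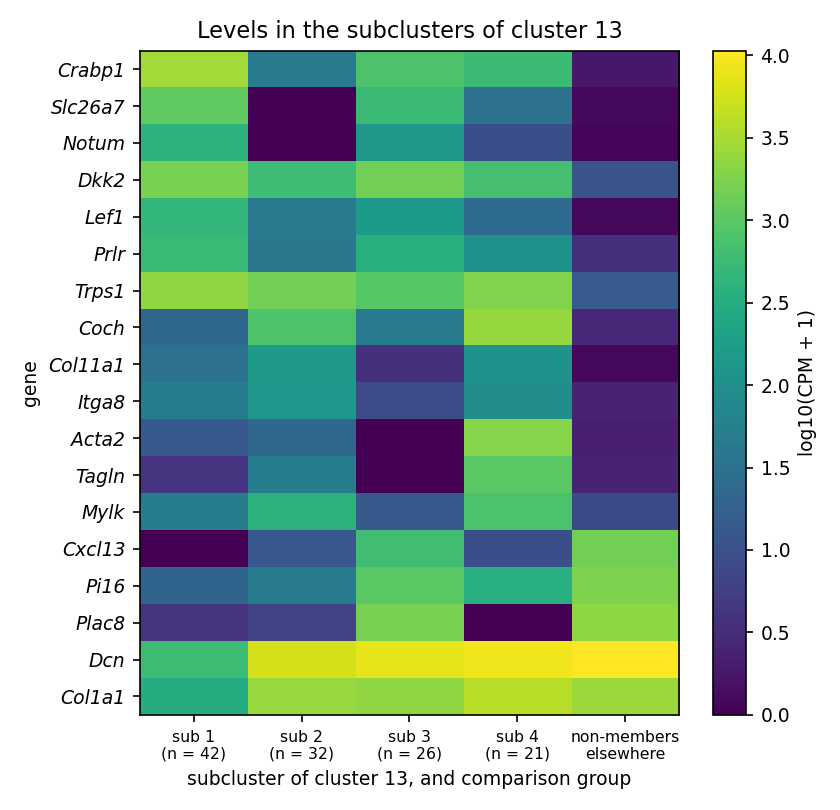
Level of 18 genes (rows, log10 of CPM plus 1, colour scale) in the 4 subclusters of cluster 13 and in non-members outside it (columns). Crabp1, Slc26a7 and Notum are high in subclusters 1 and 3, Acta2 is at 2000 CPM in subcluster 4, and Plac8 at 1604 CPM in subcluster 3.

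The 26 non-members of cluster 13 had the highest score for the Cilp set (Cilp, Thbs4, Myoc, Hmcn2) in 12 barcodes, for the Cyp2f2 set (Cyp2f2, C1qtnf3, Cyp26b1, Ecm2) in 12 and for the Nova1 set in 2. They held 0 UMIs of Crabp1, Slc26a7 and Notum, and Dkk2 in 10 of 26. Trps1 was found in 22 of the 26, with 0 to 33 UMIs and a median of 4. Members of cluster 13 carried genes of those sets too, with Cilp, a cartilage and tendon matrix protein, at 965 CPM and Cyp26b1, an enzyme that degrades retinoic acid, at 209 CPM, against 168 and 41.5 CPM in non-members elsewhere. Against barcodes of the Cilp set, 302 of 9537 genes (3.17%) were at least 2-fold higher in all members and 141 (1.48%) lower. Against the Cyp2f2 set these were 333 (3.54%) and 210 (2.23%) of 9415 genes, and against the Cxcl13 set 947 (9.01%) and 87 (0.827%) of 10514. The Rasgef1c set had 507 higher (4.8%) and 408 lower (3.87%) of 10553 genes, and the Nova1 set 407 (3.87%) and 229 (2.18%) of 10511.

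Barcodes below the gate bore on how many such cells the library holds. With fewer than 10 UMIs of the 4 gate genes and the other limits met, 905 barcodes lay below the gate, and 293 of them held at least 2 of the 4 set genes, against 68 of the members. Their median depth was 4478 UMIs, with a median of 2 UMIs of the gate genes, and scrublet called 2 as doublets. Crabp1 stood at 3262 CPM and Dkk2 at 2830 CPM, levels that chose them. Outside the rule, Lef1 stood at 791 CPM, Trps1 at 3061 CPM, Prlr at 1023 CPM and Pdgfra at 270 CPM. Dcn stood at 50.8 CPM, which the gate fixed. Against non-members elsewhere, 2808 of 12624 genes (22.2%) were at least 2-fold higher and 2510 (19.9%) lower, and 15 of 19 papilla genes were higher. Against members of cluster 13, 297 of 6386 genes (4.65%) were higher and 463 (7.25%) lower, with 8 of 17 papilla genes higher and 4 of 5 sheath genes lower. Coch stood at 79.6 CPM and Mylk at 2.06 CPM there. The 10 keratinocyte markers summed to 315 CPM in them, the 8 macrophage markers to 108 CPM and the 7 lymphoid markers to 6.18 CPM. A rule with no gate on the 4 genes gave 403 members, with the scores standardised anew over the larger set of barcodes. The 403 thus need not include all of the 302 members, and the overlap was not counted. The comparison with these barcodes was added after they were seen.

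Across the 3523 fibroblast barcodes, the genes whose levels ranked most like Crabp1 were Notum (Spearman rho 0.54), Slc26a7 (0.49), Gldn, Grid1 and Dcc (0.42). Those most like Slc26a7 were Stac (0.58), Lef1 (0.57), Notum, Grid1 and Pappa2. Those most like Dkk2 were Lamc3 (0.31), Lef1 (0.30), Trps1, Cpa6 and Slc26a7 (0.28). Dkk2 thus had lower values of rho with its nearest genes than the other set genes had, among 10026 genes ranked. The barcodes share 1 library and differ in depth, and most values are 0, so these are descriptions only.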

How the data were processed

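UMI counts per gene and barcode were deposited by the authors as 1 filtered matrix of 32285 genes and 8367 barcodes (500 to 58199 UMIs, median 9426), made with Cell Ranger on mm10 per the submitters' processing notes. The versions, the cell calling and the treatment of doublets are not given in the sources used here. The hashtag library is not used here, and 0 other columns of values were left unused. The gate and the rule kept 8127 barcodes after the gene and mitochondrial limits, 3867 after the collagen and Dcn limit, 3609 after the Ptprc limit and 3523 after the keratin limit.

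UMIs were summed over barcodes and divided by the group's total. Levels have exact Poisson intervals, ratios exact conditional intervals and shares Clopper-Pearson intervals, all at 95% and for counting error only. A gene counted as higher or lower at a 2-fold ratio with at least 50 UMIs in both groups together. With 1 pooled library no p-value was computed. Clustering used 2000 variable genes, 30 principal components, 15 neighbours and Leiden at resolution 1. Cluster 13 was clustered again with 1000 genes, 15 components, 10 neighbours and resolution 0.8. Scrublet was run at an assumed rate of 6%, and called doublets were kept. Software was Python 3.11.15, NumPy 2.4.6, SciPy 1.17.1, pandas 2.3.3, Scanpy 1.11.5, scikit-learn 1.9.0, python-igraph 0.11.9, leidenalg 0.10.2 and matplotlib 3.10.9.

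The ratio and clustering steps were tested on simulated data. The clustering first recovered only part of the barcodes planted in a small sample. It was then repeated at the size of the data, where it recovered nearly all under a strong planted signal and a minority under a weak signal. A weak shared state can thus be missed, which bears on the members outside cluster 13.

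The members and gene lists were chosen with earlier results of these data known. Named genes were, for each list, the 3 with the highest level and the 3 with the largest and the 3 with the smallest ratio, over all genes the 15 highest and 10 lowest ratios, all papilla, sheath, rule and gate genes, and the 5 genes most like each set gene. Chosen after the data were seen were the division by cluster 13, the clustering code (an earlier version gave a similar cluster), the subclustering resolution (of 3 tried), clusterings of the members alone at 2 resolutions (not used), the barcodes below the gate, the promoters and motif, the barcodes left out, and the naming of Acta1, Apcdd1, Axin2, Bmp7, Ccl7, Kcnq5, Pdgfra, Pi16, Ptgs2, Ramp3, Rspo1, Runx3 and Slit2.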

Additional observations from a re-analysis of the deposited data

How the results depend on the processing

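There were 16 alternatives planned and 10 chosen after seeing the data. The planned ones and part of the 10 covered the counts against the other fibroblasts (588 higher, 389 lower), 8 of the 27 lists and 31 genes. The number of members (302, or 8.57%) was counted where a setting chose members anew. The rest of the 10 compared cluster 13 with non-members elsewhere, for gene counts and the papilla, hedgehog and chemokine lists. Those left out called doublets, subcluster 3 or the deepest barcode, or included the non-members of cluster 13. Of the 489 planned gene ratios, 62 moved outside the interval of the reported ratio and 0 crossed 1, which says little since these genes were chosen for large ratios, and 7 more had no value because subtracting 5% free RNA left 0 in the other fibroblasts. Of the 186 added ones, 89 moved and 2 crossed 1: with the members outside cluster 13 alone Bmp4 was at 0.895 (0.573 to 1.34) and Hhip at 0.907 (0.181 to 2.79). The member number was 257 with 0 Krt5 and Krt14 UMIs, 267 (7.58%) with a score above 1, 244 (7.05%) with scores from 2000 UMIs, which left out 64 barcodes, 89 (2.53%) without Dkk2 in the set and 403 with no fibroblast gate. Higher and lower genes numbered 1172 and 982 without Dkk2, 1022 and 824 at 20 UMIs per gene, 222 and 95 at 200 UMIs, 287 and 17 when called by the interval's bound, 1888 and 1646 for cluster 13 only, 1614 and 1323 for members with at least 2 set genes, and 1948 and 2031 with no gate. For members outside cluster 13 only, 196 were higher. The higher papilla genes (14) numbered 9 at 200 UMIs and 3 outside cluster 13. Hedgehog genes (6) numbered 2 with a gate of 20 UMIs, 3 at 200 UMIs, 2 by the bound and 0 outside cluster 13. Secreted Wnt modulators (5) numbered 3 at 200 UMIs and 1 outside cluster 13, and Wnt receptors and targets (6) 3 and 0, with 10 in cluster 13 and 10 with no gate. Papillary dermis genes (6) numbered 3 and 1, sheath genes (5) 1 and 0, with 2 for at least 2 set genes, and axon guidance genes (8) 5 and 0, with 15 with no gate. The lower chemokines and cytokines (3) numbered 9 with a score above 1, 6 with scores from 2000 UMIs, 6 with every barcode weighing the same, 1 by the bound, 19 in cluster 13, 11 for at least 2 set genes and 22 with no gate. In cluster 13 without subcluster 3, 2539 genes were lower in place of 1649, from fewer UMIs. The cause was not tested, apart from settings that change the genes tested or the barcodes by construction. No paired analysis was possible because the RNA is 1 pooled library.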
